A study of Mus musculus with 32 samples.

Results

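Marc1, Inmt and Prlr are genes of epididymal white adipose tissue (eWAT) whose RNA differed between mice on a high protein diet and mice on a normal protein diet. They were described here together with Aldh1a7 and with the nearest relatives of Marc1 and Aldh1a7, which are Marc2 and Aldh1a1. These 6 genes, of 47643 gene IDs in the count table, were chosen by name, with their level by diet in eWAT already known, and were followed in every library of eWAT and liver. RNA was measured in 32 QuantSeq libraries, a method that sequences only the 3′ end of each transcript, and long genes therefore gather no extra counts. All mice were C57BL/6J males (C57BL/6 in the labels) aged 10 weeks when a treatment of 7 days began. Mice drank water with corticosterone, the main glucocorticoid of rodents (Cort), or water with the ethanol vehicle (Veh). They ate a normal protein diet with 20% of energy from protein (NPD) or a high protein diet with 60% (HPD), in which corn starch was lowered so that both diets held the same energy. Drink and diet were crossed, giving 4 groups with 4 libraries each per tissue, named Veh NPD and Veh HPD, or Cort NPD and Cort HPD. Nothing in the labels ties the libraries of a group to separate cages or cohorts, so p-values measure the spread between these libraries.

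The proteins of these genes do different chemistry. Marc1 and Marc2, now also called Mtarc1 and Mtarc2, encode the mitochondrial amidoxime reducing components, molybdenum enzymes that take electrons from NADH through Cyb5r3 and a cytochrome b5 and reduce N-hydroxylated compounds. Inmt encodes indolethylamine N-methyltransferase, which moves a methyl group from S-adenosylmethionine (SAM) to tryptamine and other small molecules. Prlr encodes the prolactin receptor, a cytokine receptor that signals through JAK2 and STAT5 and is found in adipocytes and hepatocytes. Aldh1a1 encodes a cytosolic aldehyde dehydrogenase that oxidises retinaldehyde to retinoic acid, and Aldh1a7 encodes its close rodent paralog.

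In GRCm38, Marc1 lies at chr1:184786767-184811313 and Marc2 next to it at chr1:184813068-184846451, both on the minus strand. Inmt lies at chr6:55170626-55175043 on the minus strand and Prlr at chr15:10177238-10349180 on the plus strand. Aldh1a7 at chr19:20692953-20727562 on the minus strand and Aldh1a1 at chr19:20492715-20643465 on the plus strand are neighbours that point toward each other. RefSeq (GRCm38.p6) gives promoter windows, from 250 bases before to 50 bases after a start site, for all 6 genes. The Aldh1a7 window and the window of the inner Aldh1a1 start are shown together because the levels of these paralogs moved differently in both tissues. They were identical at 221 of 286 aligned bases (77.3%), and the capitals mark the longest run that they share without a difference, 65 bases that begin 94 bases before either start. The first window is chr19:20727507-20727806 on the minus strand and the second is chr19:20601718-20602017 on the plus strand.
Aldh1a7: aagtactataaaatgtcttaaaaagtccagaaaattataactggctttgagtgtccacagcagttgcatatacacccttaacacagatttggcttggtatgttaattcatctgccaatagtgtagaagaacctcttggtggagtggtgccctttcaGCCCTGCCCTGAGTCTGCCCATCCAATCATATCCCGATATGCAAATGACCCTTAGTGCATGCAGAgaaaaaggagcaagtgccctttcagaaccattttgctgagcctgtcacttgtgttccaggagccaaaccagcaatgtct
Aldh1a1: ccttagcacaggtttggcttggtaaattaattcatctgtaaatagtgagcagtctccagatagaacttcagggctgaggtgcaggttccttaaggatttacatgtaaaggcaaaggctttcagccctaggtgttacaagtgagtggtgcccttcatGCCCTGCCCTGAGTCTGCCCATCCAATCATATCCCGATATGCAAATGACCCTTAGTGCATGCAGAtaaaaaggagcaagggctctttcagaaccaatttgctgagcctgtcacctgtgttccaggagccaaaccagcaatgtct
The window of the other Aldh1a1 start shared at most 8 bases in a row with Aldh1a7, and the Marc1 window shared at most 9 with either Marc2 window. The transcripts themselves, a single coding form of each gene, were 89.6% identical over 2050 aligned bases for Aldh1a7 and Aldh1a1, and 64.3% over 1833 for Marc1 and Marc2. These libraries read near the 3′ end. Aldh1a1 has 6 annotated 3′ ends, and which of them was read was not tested. Over the last 300 bases of the forms compared, Aldh1a7 and Aldh1a1 were 83.5% identical with a longest shared run of 24 bases. How reads shared by this pair were counted is not given in the sources used here, and their counts are uncertain to that extent.

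The windows of Inmt and Prlr are shown because both levels differed by diet in eWAT, and Inmt differed by Cort in liver. They were searched on both strands for the glucocorticoid receptor half-site AGAACA, the STAT element TTCNNNGAA, the E-box CACGTG and the TATA box TATAAA, which 19%, 8.3%, 7.15% and 13.6% of 32851 RefSeq promoter windows hold. Capitals mark the matches. The Inmt window is chr6:55174941-55175240 on the minus strand and has the letters TATAAA at 80 and 69 bases before its RefSeq start. The Inmt gene span given above, to 55175043 on the minus strand, begins further upstream, so these distances depend on the annotation.
Inmt: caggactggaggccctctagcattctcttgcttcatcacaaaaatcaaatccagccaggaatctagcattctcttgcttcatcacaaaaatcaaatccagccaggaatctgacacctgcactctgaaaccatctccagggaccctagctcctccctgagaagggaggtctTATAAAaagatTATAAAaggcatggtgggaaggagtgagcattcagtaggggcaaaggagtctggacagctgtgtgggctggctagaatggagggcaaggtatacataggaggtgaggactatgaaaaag
The Prlr window, 1 of 3 for this gene and the one with matches, is chr15:10223656-10223955 on the plus strand and has the STAT element 110 bases before the start and the half-site, on the other strand, 12 bases before it.
Prlr: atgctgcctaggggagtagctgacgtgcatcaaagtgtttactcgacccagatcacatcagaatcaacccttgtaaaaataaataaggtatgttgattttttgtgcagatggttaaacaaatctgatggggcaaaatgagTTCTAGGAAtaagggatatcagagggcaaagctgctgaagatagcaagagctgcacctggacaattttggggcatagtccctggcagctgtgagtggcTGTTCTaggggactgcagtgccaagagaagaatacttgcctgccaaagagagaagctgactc
Aldh1a7 had the letters TATAAA 244 bases before its start, a match of letters only. The windows of Marc1, Marc2 and Aldh1a1 held no match to any of these motifs. A 3′ library does not show which start was used.

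Counts were scaled to CPM, the counts of a gene per 1e+06 counts of its library, with TMM factors and tested with edgeR in each tissue. Cell type marker values and sums were scaled by library totals alone, without these factors. Total counts per library were 8933307 to 18057936. The adipocyte markers (6 of 6 found) summed to 26185 to 35464 CPM in eWAT and 37.6 to 102 CPM in liver. Of the 6 hepatocyte markers, Apoa1, Apoa2, Ttr and Cps1 reached at most 3.16 CPM in eWAT and Alb 81.7 CPM, against at least 32027 CPM of Alb in liver. The sixth, Cyp2e1, was 885 to 3648 CPM in eWAT. The eWAT library Cort HPD replicate 4 held transcripts of epididymis and testis (6650 CPM over 8 markers, at most 10.5 CPM in any other eWAT library), and diet values under Cort are also given without it. The liver library Veh HPD replicate 4 stood apart, with the lowest hepatocyte marker sum of the liver libraries (48590 CPM, against 69538 to 72520 CPM in the other Veh HPD livers) and the highest macrophage sum (359 CPM against 112 to 167 CPM). It was left out of the liver fits, as the choice of genes asked, and its values are given beside them.

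In eWAT, Marc1 was lower on the HPD in both treatments, with the wider gap under Cort. Its level was 16.3, 13.8, 17.3 and 20.0 CPM in the Veh NPD libraries and 9.39, 5.48, 10.3 and 6.29 CPM in the Veh HPD libraries. Under Cort it was 24.8, 32.6, 18.2 and 42.7 CPM on the NPD and 5.65, 5.48, 6.25 and 7.47 CPM on the HPD. The diets did not overlap in either treatment, and the lowest Cort NPD mouse lay above 3 of the 4 Veh NPD mice. The HPD level was 2.15-fold lower under Veh (log2 fold change −1.10 ± 0.25, SE) and 4.73-fold lower under Cort (−2.24 ± 0.26). These eWAT diet values chose the genes and are given with no test, as is the difference of −1.14 ± 0.35 between them. Without Cort HPD replicate 4 the Cort value was −2.35.

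Marc2, the neighbouring paralog, stayed near 1 level in all eWAT groups. Its mean was 281 ± 16.8 CPM in Veh NPD, 283 ± 86.2 in Veh HPD, 262 ± 14.2 in Cort NPD and 271 ± 24.4 in Cort HPD (SD, n = 4). Single libraries ran from 231 to 304 CPM apart from Veh HPD replicate 4 at 411 CPM. The diet values on the log2 scale were 0.01 ± 0.14 under Veh (−0.22 without Veh HPD replicate 4) and 0.05 ± 0.14 under Cort (−0.014 without Cort HPD replicate 4), beside −1.10 and −2.24 for its neighbour Marc1.

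Inmt was higher on the HPD in eWAT in both treatments. It was 114, 74.8, 69.7 and 84.1 CPM in Veh NPD and 175, 225, 167 and 302 CPM in Veh HPD. Under Cort it was 112, 111, 119 and 81.8 CPM on the NPD and 166, 134, 234 and 273 CPM on the HPD. Every HPD mouse lay above every NPD mouse of its treatment. The HPD level was 2.54-fold higher under Veh (1.34 ± 0.23, or 1.14 without Veh HPD replicate 4) and 1.91-fold higher under Cort (0.93 ± 0.23, or 0.75 without Cort HPD replicate 4).

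Prlr was higher on the HPD in eWAT under Veh and overlapped between the diets under Cort. It was 37.4, 37.2, 30.2 and 42.7 CPM in Veh NPD and 70.6, 65.5, 56.9 and 113 CPM in Veh HPD. Under Cort it was 66.0, 61.1, 69.0 and 68.0 CPM on the NPD and 68.1, 80.0, 70.1 and 61.1 CPM on the HPD. The 4 Veh NPD libraries were the lowest of the tissue, and the other 3 groups overlapped one another. The HPD level was 2.08-fold higher under Veh (1.05 ± 0.16, or 0.80 without Veh HPD replicate 4), and under Cort the difference was 0.08 ± 0.16 (0.14 without Cort HPD replicate 4). Cort on the NPD and the HPD under Veh gave overlapping levels (means of 66.0 ± 3.54 and 76.6 ± 25.2 CPM), and both together gave 69.8 ± 7.82 CPM.

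Aldh1a7 was lower on the HPD in eWAT in both treatments, while Aldh1a1 overlapped between diets. Aldh1a7 was 120, 135, 182 and 146 CPM in Veh NPD and 79.6, 57.1, 70.1 and 93.1 CPM in Veh HPD. Under Cort it was 210, 122, 153 and 163 CPM on the NPD and 53.2, 93.9, 55.4 and 71.5 CPM on the HPD. No HPD mouse reached the lowest NPD mouse of its treatment. The HPD level was 1.94-fold lower under Veh (−0.96 ± 0.19) and 2.37-fold lower under Cort (−1.24 ± 0.19, or −1.27 without Cort HPD replicate 4). For Aldh1a1 the diet values were −0.12 ± 0.13 and −0.02 ± 0.13 (−0.037 without that library).

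Counting over the 6 genes, the diets did not overlap for 4 of them under Veh, where 4.28% of the 15187 genes tested in eWAT did not overlap, and for 3 of them under Cort, where 6.66% did not. Since these contrasts chose the genes, nothing is read from those counts. Adjusted p under 0.05 was reached by 0.0593% of the genes for diet under Veh and by 0.487% under Cort. Marker sums of 2 other cell types, scaled by library totals, also separated the diets in eWAT under Cort. The stromal progenitor gap is narrow and does not hold once the sums are divided by the TMM factors (0.928 for Cort NPD replicate 3). Stromal progenitor markers (6 of 6 found, none at 0) summed to 1806 to 1973 CPM in Cort NPD and 2015 to 2509 CPM in Cort HPD, and red blood cell markers (5 of 5 found, none at 0) to 3495 to 6403 CPM and 12525 to 25070 CPM. Under Veh both sums overlapped between the diets, at 2972 to 3500 and 3218 to 3576 CPM for the stromal and 3851 to 7350 and 5388 to 9833 CPM for the red blood cell markers. Their part in the diet differences was not tested. In bulk tissue, fewer cells of a type and less RNA per cell cannot be told apart.

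**Figure D1:**
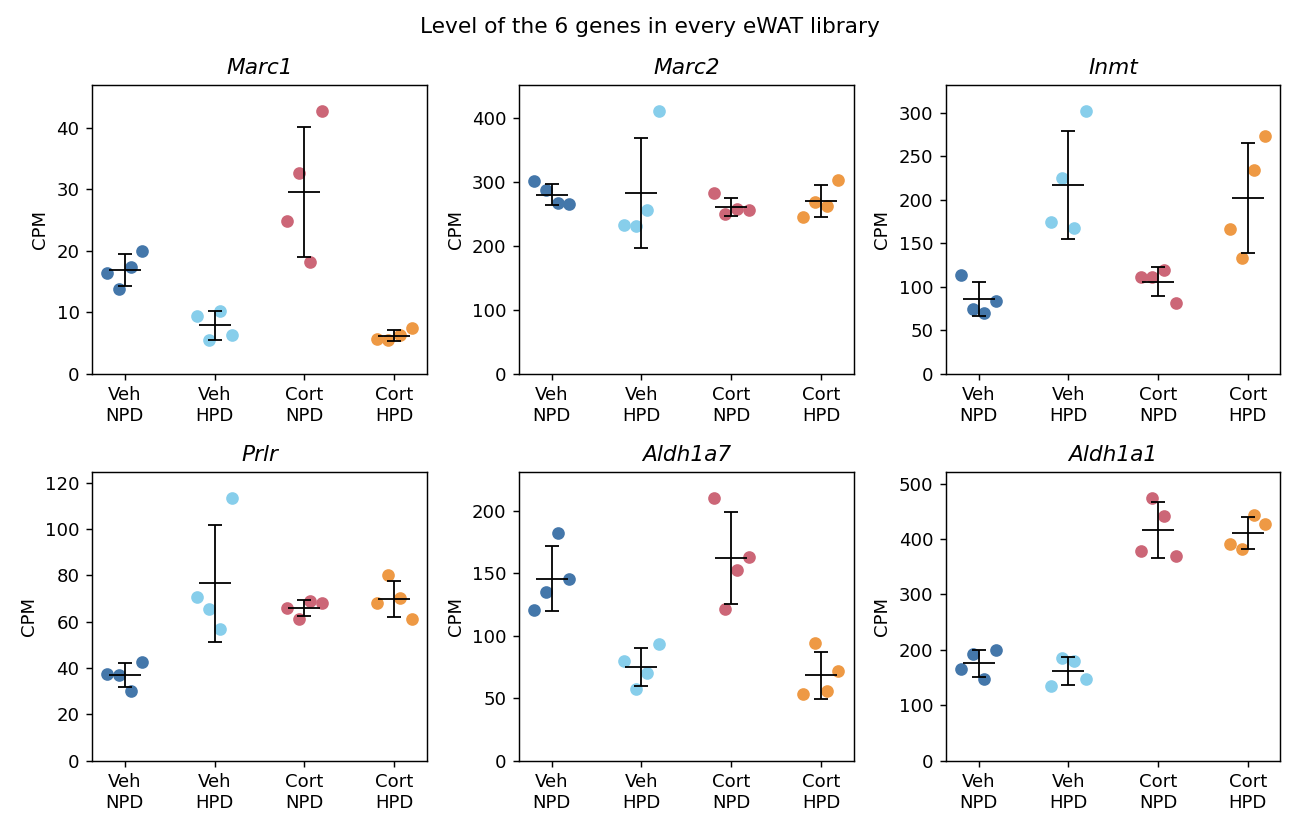
Level in CPM (vertical axes, linear from 0) of the 6 genes in each of the 16 eWAT libraries, by group, with 1 point per library and the mean with SD in black (n = 4). Marc1 and Aldh1a7 are lower and Inmt higher in the HPD groups, Prlr is lowest in Veh NPD, and Aldh1a1 is 134 to 199 CPM in the Veh libraries and 370 to 474 CPM in the Cort libraries.

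Whether Cort changed these genes in eWAT was tested as the mean of the Cort effects on both diets. This contrast is uncorrelated with both diet contrasts when groups are equal in size and in spread. The spreads were not equal (for Prlr an SD of 3.54 CPM in Cort NPD and 25.2 CPM in Veh HPD), and the spread estimate of a gene served both contrasts. The Cort p-values in eWAT are therefore not fully free of the choice of the genes. Aldh1a1 rose. It was 165, 192, 147 and 199 CPM in Veh NPD and 134, 185, 181 and 148 CPM in Veh HPD, against 379, 474, 442 and 370 CPM in Cort NPD and 392, 381, 444 and 426 CPM in Cort HPD. The 8 Cort libraries all lay above the 8 Veh libraries, a separation seen for 3.04% of all genes, and the level was 2.45-fold higher (log2 1.29 ± 0.09, edgeR quasi-likelihood test, Benjamini-Hochberg adjusted p = 7.1e-11). Without Cort HPD replicate 4 the value was 1.28, and over the fits that left out 1 library in turn it was 1.25 to 1.32.

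Prlr passed the same test with a small change, 1.28-fold higher (0.35 ± 0.12, adjusted p = 0.036 with edgeR). The mean joined values of opposite sign, 0.84 ± 0.16 on the NPD and −0.13 ± 0.16 on the HPD, which are given with no test because their difference is the diet difference that chose the gene. Its Veh libraries ran from 30.2 to 113 CPM and its Cort libraries from 61.1 to 80.0 CPM, so the Cort range lay inside the Veh range. Leaving out 1 library at a time ended the call in 11 of 16 cases, with adjusted p up to 0.086 and values of 0.29 to 0.48 over all 16, and the call held without Veh NPD replicate 2 or 4, Veh HPD replicate 4, Cort NPD replicate 2 or Cort HPD replicate 4. It was also lost when library totals replaced the TMM factors (0.29, adjusted p = 0.068). Marc1 (0.24, 95% interval −0.14 to 0.62, the mean of 0.81 ± 0.24 on the NPD and −0.33 ± 0.25 on the HPD), Inmt (0.10, −0.25 to 0.45), Aldh1a7 (0.01, −0.28 to 0.30) and Marc2 (−0.08, −0.30 to 0.14) did not pass. Without Cort HPD replicate 4 these values were 0.19 for Marc1, 0.011 for Inmt, −0.0014 for Aldh1a7 and −0.11 for Marc2. So 2 of the 6 genes were called, where 15.5% of all genes tested in eWAT were. The stromal progenitor sum was lower in all Cort than in all Veh libraries, and the red blood cell sum was highest in Cort HPD, at the values given above, and the part of either in these results was not tested.

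In liver, the diet was tested in other libraries than those of eWAT, whose diet values chose the genes. These libraries may come from the same mice, and earlier results of these data were known when the tests were chosen. None of the 6 genes passed under either treatment. Inmt, the gene with the widest spread, was 586, 615, 724 and 1255 CPM in Veh NPD and 550, 718 and 1272 CPM in Veh HPD, with the left-out Veh HPD replicate 4 at 96.4 CPM. Its diet difference under Veh was 0.09 on the log2 scale (95% interval −1.12 to 1.30) and its upper end lies just below the eWAT value of 1.34. Under Cort it was 62.9, 82.1, 18.6 and 152 CPM on the NPD and 122, 104, 195 and 151 CPM on the HPD, a difference of 0.85 (−0.28 to 1.99, edgeR adjusted p = 0.38), beside 0.93 in eWAT. These groups overlapped. Marc1 differed by −0.10 (−0.42 to 0.21) under Veh and −0.23 (−0.52 to 0.06) under Cort, beside −1.10 and −2.24 in eWAT. Its 4 Cort HPD livers, at 215 to 219 CPM, lay below all 4 Cort NPD livers, at 224 to 286 CPM, as 13.3% of the 12391 genes tested in liver did not overlap in that comparison, and the difference did not pass the test (adjusted p = 0.33 with edgeR).

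For the remaining genes, the interval of each liver diet difference held 0. Prlr differed by 0.10 (−0.53 to 0.74) under Veh and 0.24 (−0.35 to 0.82) under Cort, Aldh1a7 by −0.05 (−0.46 to 0.35) and 0.33 (−0.04 to 0.70). Marc2 differed by −0.12 (−0.46 to 0.22) and −0.18 (−0.50 to 0.13), and Aldh1a1 by −0.34 (−0.83 to 0.15) and 0.09 (−0.37 to 0.54). The eWAT values of Aldh1a7 were −0.96 and −1.24, and that of Prlr under Veh was 1.05. In both treatments edgeR called 0 of the 6 genes, where it called 0.169% of all genes for diet under Veh and 5.88% under Cort. An unadjusted p under 0.05 in edgeR was reached by 0 of the 6 as well, beside 9.4% of all genes under Veh and 21.3% under Cort. DESeq2 also called 0 of the 6 (0.969% and 8.69% of all genes), as did limma voom (0.113% and 5.57%). The difference of the diet effect between treatments was called for 0 of the 6 by edgeR (0.113% of all genes), DESeq2 (1.12%) and limma voom (0.0565%), and 0 of the 6 had an unadjusted p under 0.05 in edgeR (12.1%). With Veh HPD replicate 4 included, the differences under Veh were −0.26 for Inmt, −0.33 for Marc1, −0.12 for Prlr, 0.01 for Aldh1a7, −0.25 for Marc2 and −0.41 for Aldh1a1, and again none passed.

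Under Cort, 5 marker sums, scaled by library totals, separated the diets in liver with no overlap. The TMM factor of Cort HPD replicate 1 was 0.754, the lowest of the liver fit. The adipocyte and stromal progenitor gaps given below do not hold once the sums are divided by the TMM factors. From Cort NPD to Cort HPD the hepatocyte sum went from 90716 to 115393 CPM to 128826 to 173798 CPM, and the red blood cell sum from 1407 to 3533 CPM to 4632 to 6942 CPM (none of these markers at 0). The endothelial sum (5 of 5 found, none at 0) went the other way, from 48.1 to 89.4 CPM to 23.8 to 40.6 CPM, as did the stromal progenitor sum, from 402 to 536 CPM to 286 to 367 CPM, and the adipocyte sum, from 62.8 to 102 CPM to 43.1 to 61.8 CPM. Under Veh these 5 sums overlapped between the diets. Their part in the liver diet values under Cort, those of the pathway genes included, was not tested.

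Cort changed Inmt and Aldh1a7 in liver. Inmt fell from 550 to 1272 CPM in the 7 Veh livers to 18.6 to 195 CPM in the 8 Cort livers, 7.73-fold lower (−2.95 ± 0.39, edgeR adjusted p = 2.4e-04). The Veh and Cort livers did not overlap, as for 4.25% of all genes, and the value ran from −3.23 to −2.74 over the fits without 1 library. With Veh HPD replicate 4, whose 96.4 CPM lies among the Cort livers, it was −2.76 (adjusted p = 0.0019 with edgeR).

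Aldh1a7 rose in the same livers. It was 134, 120, 126 and 177 CPM in Veh NPD and 161, 131 and 111 CPM in Veh HPD, against 203, 278, 215 and 291 CPM in Cort NPD and 349, 270, 349 and 272 CPM in Cort HPD. All 8 Cort livers lay above all 7 Veh livers, at a level 2.02-fold higher (1.02 ± 0.13, edgeR adjusted p = 4.7e-06), and the value was 0.99 with all 16 libraries. The left-out library held 160 CPM.

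The other 4 genes were not called for Cort in liver. Marc1 was 234 to 314 CPM in the Veh livers and 215 to 286 CPM in the Cort livers, −0.23 ± 0.10 (adjusted p = 0.093 with edgeR, 0.044 with DESeq2, and 0.012 at a value of −0.36 with library totals in place of TMM factors). With all 16 libraries the Marc1 value was −0.11 (adjusted p = 0.67 with edgeR). Marc2 differed by 0.24 (95% interval 0.01 to 0.48, adjusted p = 0.11 with edgeR), Prlr by 0.09 (−0.34 to 0.52) and Aldh1a1 by 0.07 (−0.26 to 0.41). In all, 2 of the 6 were called, beside 20.4% of all genes tested in liver. The hepatocyte marker sum was 69538 to 92254 CPM in the 7 Veh livers and 90716 to 173798 CPM in the Cort livers, and macrophage markers (5 of 5 found, none at 0) summed to 112 to 201 CPM in the same Veh livers and 52.7 to 137 CPM in the Cort livers. Their part in these results was not tested.

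**Figure D2:**
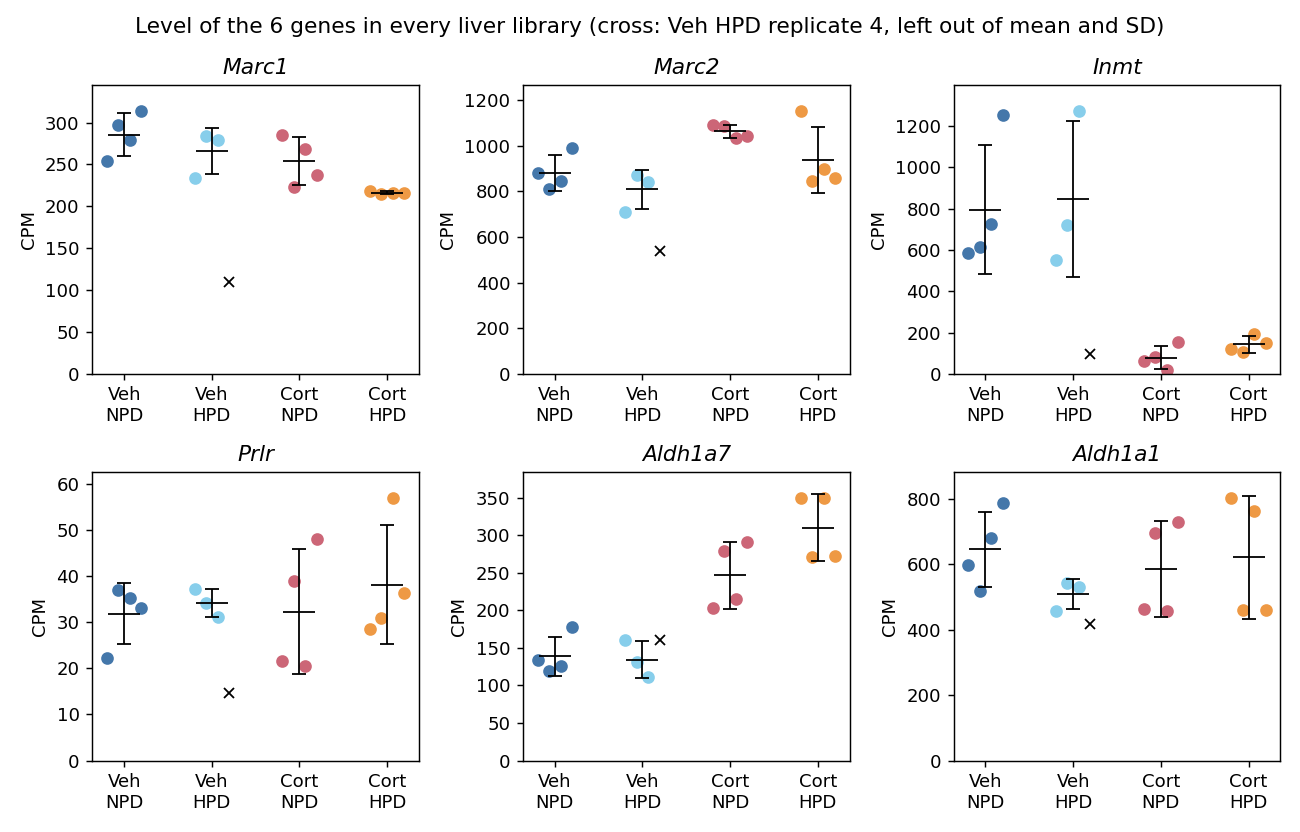
Level in CPM (vertical axes, linear from 0) of the 6 genes in each liver library, by group, with 1 point per library and the mean with SD in black (n = 4, or 3 in Veh HPD), and a cross for the left-out Veh HPD replicate 4. Inmt is 550 to 1272 CPM in the Veh livers of the fit and 18.6 to 195 CPM in the Cort livers, Aldh1a7 rises from 111 to 177 CPM to 203 to 349 CPM, and the diets overlap for most genes.

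The response to Cort was then compared between tissues in 1 edgeR fit of the 31 libraries, a test chosen after the values were seen. It passed for 3 of the 6 genes, where 7.76% of all genes tested passed. The effect in liver minus that in eWAT was −3.05 ± 0.42 for Inmt (adjusted p = 2.7e-05), 1.01 ± 0.20 for Aldh1a7 (adjusted p = 7.0e-04) and −1.22 ± 0.19 for Aldh1a1 (adjusted p = 3.6e-05). Of the paralogs on chromosome 19, Aldh1a1 rose in eWAT and Aldh1a7 rose in liver, and the other of the pair did not pass in that tissue. For Prlr (−0.26 ± 0.24), Marc1 (−0.47 ± 0.19) and Marc2 (0.33 ± 0.16) the difference did not pass. Without eWAT Cort HPD replicate 4 the 3 called values were −2.96, 1.02 and −1.21, and with all 16 liver libraries −2.86, 0.99 and −1.17.

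**Figure D3:**
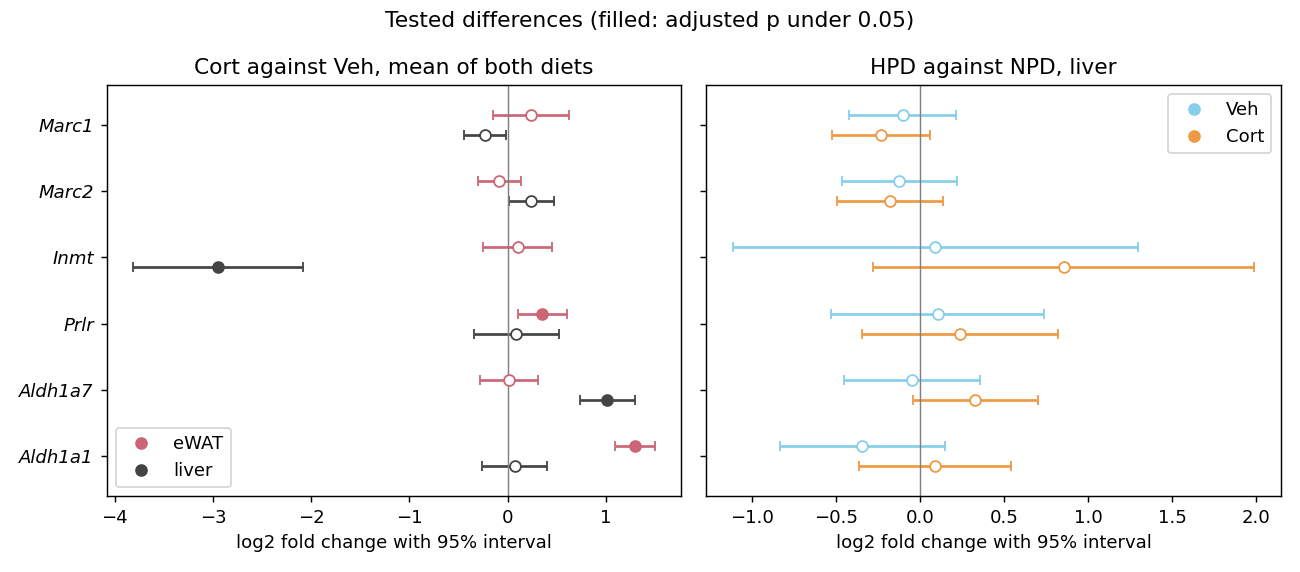
Log2 fold changes with 95% intervals (horizontal axes) of the 6 genes for Cort against Veh, as the mean of both diets, in eWAT and liver (left), and for HPD against NPD in liver (right); filled points passed an adjusted p under 0.05. Aldh1a1 and Prlr pass in eWAT, Inmt and Aldh1a7 pass in liver, and no diet difference passes in liver.

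The ratio of Aldh1a7 to Aldh1a1 counts within a library needs no scaling between libraries. In eWAT it was 0.704 to 1.24 in Veh NPD, 0.309 to 0.628 in Veh HPD, 0.257 to 0.556 in Cort NPD and 0.125 to 0.246 in Cort HPD. In liver it was 0.185 to 0.231 in Veh NPD, 0.211 to 0.353 in Veh HPD, 0.400 to 0.470 in Cort NPD and 0.435 to 0.592 in Cort HPD. The left-out liver library, Veh HPD replicate 4, was at 0.383. The order of the Veh NPD and Cort HPD groups was opposite in the 2 tissues, with no overlap in either.

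**Figure D4:**
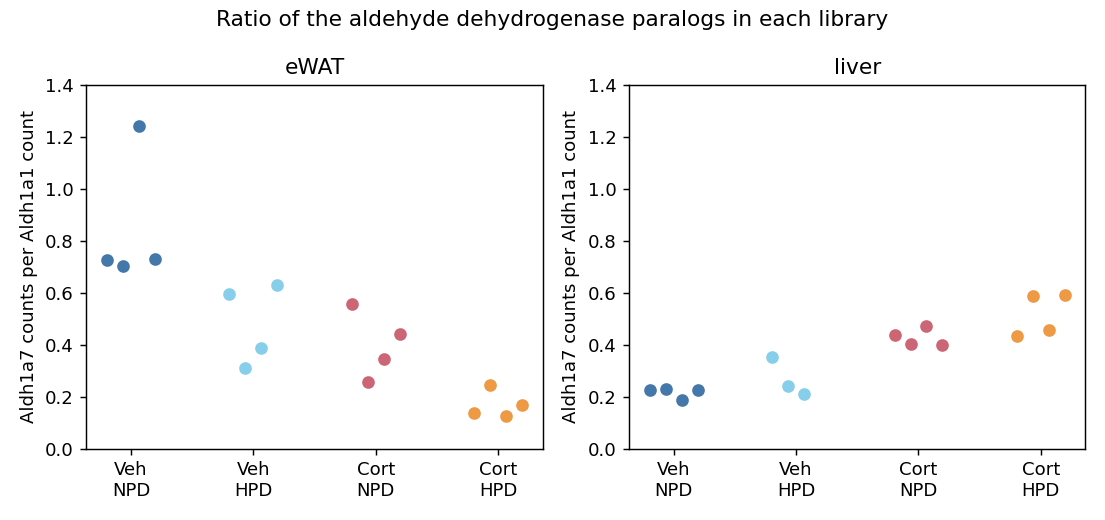
Counts of Aldh1a7 per count of Aldh1a1 in each library of the fits (vertical axes, 1 point per library, linear from 0) in the 4 groups of eWAT and of liver. The left-out liver Veh HPD replicate 4 is not drawn. The ratio is highest in Veh NPD and lowest in Cort HPD in eWAT, and lowest in Veh NPD and highest in the Cort groups in liver.

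The genes whose level followed Marc1, Inmt or Prlr most closely over the 16 eWAT libraries were found by Pearson's r of log2 CPM among all genes tested, as a description. The libraries share the 4 groups, so genes that differ between groups correlate. Cyb5r3, the reductase that feeds electrons to the mARC enzymes, came first for Marc1 (r = 0.911), with 241 ± 11.4 and 190 ± 11.2 CPM (SD) on the NPD and HPD under Veh and 248 ± 18.9 and 181 ± 7.22 CPM under Cort. It was followed by Sycp3, a protein of the meiotic chromosome axis (r = 0.867). For Inmt they were Snw1, a splicing and transcription cofactor (r = 0.889), Gpx3, the secreted glutathione peroxidase (r = 0.887), and the noncoding RNA Zfas1 (r = 0.869). Gpx3 was at 606 ± 209 and 1564 ± 638 CPM under Veh and 755 ± 157 and 1323 ± 261 CPM under Cort. For Prlr they were Sdad1, a ribosome assembly factor (r = 0.923), Mrpl39, a mitochondrial ribosomal protein (r = 0.904), and Xdh, xanthine dehydrogenase (r = 0.895), which was at 103 ± 11.8 and 140 ± 37.5 CPM under Veh and 153 ± 3.88 and 141 ± 3.87 CPM under Cort.

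Of the other molybdenum and mARC electron chain genes, 11 of 13 were tested in each tissue. In eWAT, 3 rose with Cort and 8 did not pass, at a median log2 fold change of 0.17 beside −0.02 over all genes, where 8.13% of all genes rose and 7.41% fell. They were Mocs2 (0.49 ± 0.09, adjusted p = 4.1e-04 with edgeR) and Mocs1 (0.33 ± 0.11, adjusted p = 0.045 with edgeR), which build the molybdenum cofactor, and Xdh (0.29 ± 0.10, adjusted p = 0.043 with edgeR), an enzyme of purine breakdown. From Veh to Cort in eWAT, mean Xdh went from 103 to 153 CPM on the NPD and from 140 to 141 CPM on the HPD. Cyb5r3 was at −0.01 ± 0.07 there. In liver, 2 rose and 2 fell with Cort, at a median of −0.04 beside −0.01 over all genes, where 10.7% rose and 9.68% fell. With library totals in place of TMM factors, the share of called genes that rose with Cort was 38.6% in eWAT and 28.6% in liver, against 52.3% and 52.6% here. Aox3, an aldehyde oxidase, fell from 55.5 to 136 CPM in the Veh livers to 3.56 to 16.1 CPM in the Cort livers (−3.40 ± 0.27, adjusted p = 9.5e-07 with edgeR), and Cyb5r3 fell by 0.78 ± 0.14 on the log2 scale. Mocos, the sulfurase that completes the cofactor of Xdh and the aldehyde oxidases, rose (0.48 ± 0.13), as did Aox1 (0.42 ± 0.14). For diet in liver, Mocos alone of the 11 passed, under Cort (0.67 ± 0.18, adjusted p = 0.028 with edgeR).

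Of the other small-molecule methyltransferases and SAM cycle genes, 13 of 16 were tested in eWAT and 15 in liver. With Cort in eWAT, 6 rose and 7 did not pass, at a median of 0.49 beside −0.02 over all genes. Among them were Ahcyl1 (0.54 ± 0.08, adjusted p = 2.4e-05 with edgeR) and Ahcyl2 (0.66 ± 0.11), relatives of the enzyme that clears S-adenosylhomocysteine, and Gamt, the last enzyme of creatine synthesis (0.73 ± 0.11). In liver 5 rose, 1 fell and 9 did not pass, at a median of 0.20 beside −0.01. Over all genes, 8.13% rose and 7.41% fell in eWAT, and 10.7% rose and 9.68% fell in liver. Bhmt, which remakes methionine from betaine, rose from 720 to 1513 CPM in the Veh livers to 1831 to 3853 CPM in the Cort livers (1.31 ± 0.15, adjusted p = 2.0e-06 with edgeR). Mat1a, the SAM synthetase of hepatocytes, rose as well (1.01 ± 0.13), as did Ahcyl1 (0.80 ± 0.10). Nnmt, the nicotinamide methyltransferase, rose in liver (1.31 ± 0.17) and in eWAT (0.49 ± 0.08).

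Of the other genes of prolactin receptor signalling, 12 of 13 were tested in each tissue. In eWAT 2 rose and 2 fell with Cort, at a median of 0.11 beside −0.02. Ghr, the growth hormone receptor and a relative of Prlr, rose (0.30 ± 0.09, adjusted p = 0.017 with edgeR), and Socs3, an inhibitor of cytokine receptors, rose (0.62 ± 0.18). The STAT5 target genes Cish and Socs2, which encode inhibitors of these receptors, fell by 1.36 ± 0.36 and 0.53 ± 0.16 on the log2 scale. Cish was 2.96 to 42.4 CPM in the Veh and 2.17 to 6.89 CPM in the Cort libraries, ranges that overlap. Its mean was 4.43 CPM in Veh NPD and 17.4 CPM in the scattered Veh HPD group (SD 17.2), against 2.59 CPM in Cort NPD and 4.44 CPM in Cort HPD. In liver 3 fell and 9 did not pass, at a median of −0.17 beside −0.01: Socs2 from 26.2 to 90.4 CPM to 8.32 to 13.7 CPM (−2.39 ± 0.23, adjusted p = 1.8e-06 with edgeR), Ghr by 0.86 ± 0.13 and the cyclin Ccnd1 by 1.68 ± 0.25.

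Of the other genes of retinoid metabolism and aldehyde dehydrogenases, 23 of 30 were tested in eWAT and 24 in liver. In eWAT, where Aldh1a1 rose with Cort, 1 rose and 3 fell, at a median of −0.09 beside −0.02. The fallers were Rbp7, a retinol binding protein (by 1.45 ± 0.21 on the log2 scale, adjusted p = 2.3e-04 with edgeR), and the other retinoic acid forming enzymes Aldh1a2 (by 1.13 ± 0.21) and Aldh1a3 (by 0.87 ± 0.23). Aldh1a2 was 7.64 to 14.3 CPM in the Veh and 3.03 to 7.45 CPM in the Cort libraries. The gene that rose was the retinol dehydrogenase Rdh11 (0.86 ± 0.13). In liver 6 rose and 2 fell with Cort, at a median of −0.09 beside −0.01, among them the retinoid receptor Rxrg (1.24 ± 0.21) and the plasma retinol carrier Rbp4 (0.48 ± 0.11), which rose, and the retinaldehyde reductase Dhrs3, which fell by 0.38 ± 0.12.

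This list held the gene that passed for diet in liver under both treatments, the mitochondrial aldehyde dehydrogenase Aldh1b1. It was at 45.8 ± 8.58 CPM in Veh NPD and 106 ± 22.4 CPM in Veh HPD (1.21 ± 0.18, adjusted p = 0.0020 with edgeR), and at 96.0 ± 16.4 and 156 ± 10.5 CPM under Cort (0.70 ± 0.16, adjusted p = 0.014), and it also rose with Cort (0.81 ± 0.12). Under Cort, 2 of the 24 rose and 3 fell on the HPD (3.08% and 2.8% of all genes). Rxrg rose, and the retinol saturase Retsat (by 1.37 ± 0.22 on the log2 scale), the receptor Rxra (by 0.46 ± 0.13) and the retinoic acid hydroxylase Cyp26b1 (by 2.42 ± 0.61) fell.

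**Figure D5:**
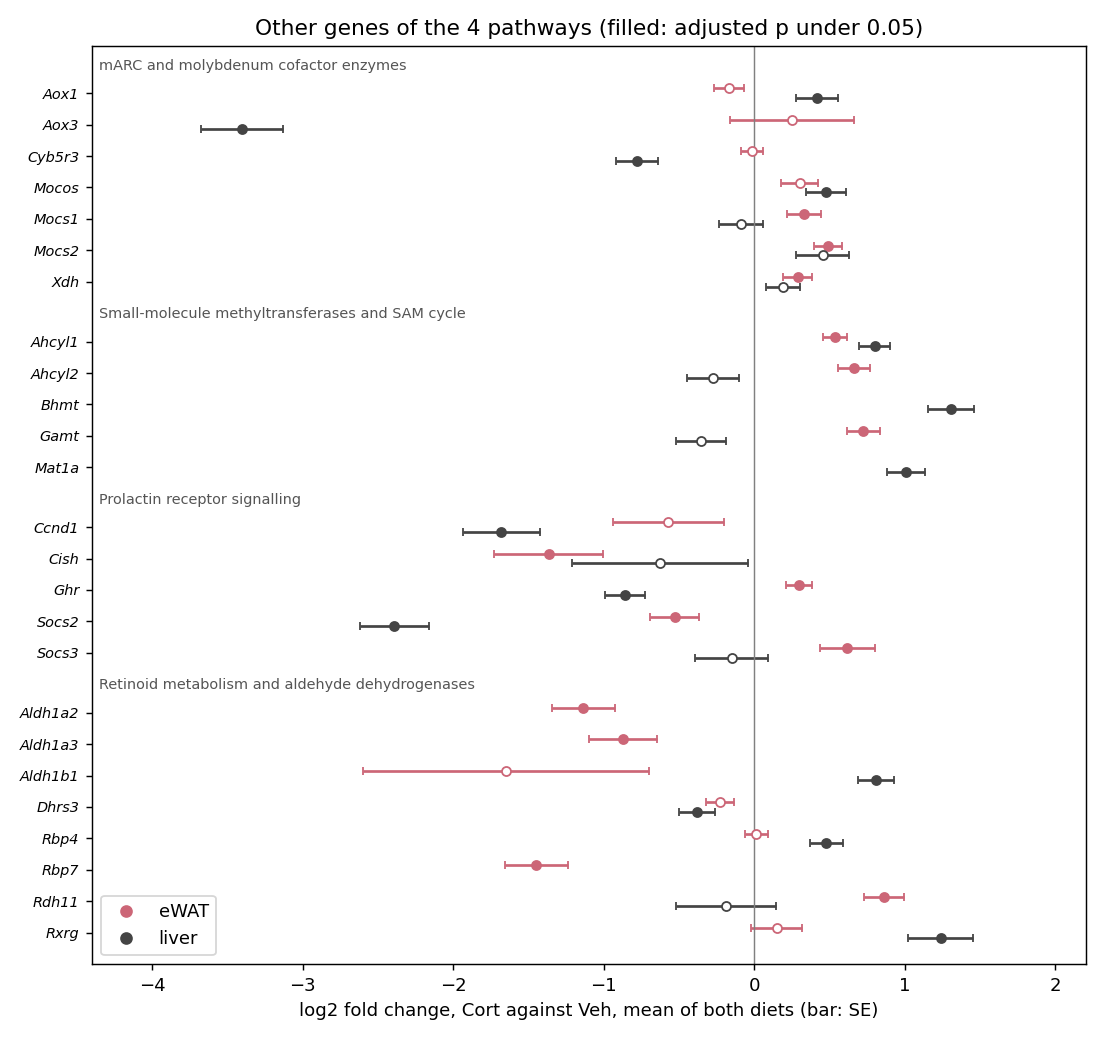
Log2 fold change with SE (horizontal axis) of Cort against Veh, as the mean of both diets, for pathway genes chosen by smallest p, in eWAT and liver; filled points passed an adjusted p under 0.05, and a gene with too few counts in a tissue has 1 point. Ghr rises in eWAT and falls in liver, Ahcyl1 rises in both, and Aox3 and Socs2 have the lowest values in liver.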

How the data were processed

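The deposited table held raw counts, whole numbers per Ensembl gene ID with 1 column per library, which the authors had not normalized. RNA was extracted with an RNeasy kit and made into 3′ libraries. The submitters' processing notes name GRCm38 (mm10), R 4.0.3 and limma, and the aligner, counting program and handling of shared or duplicate reads are not given in the sources used here. Of 47643 gene IDs, 47224 matched a symbol in GENCODE vM21.

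Each tissue was fitted on its own, 4 groups and no covariate, with R 4.3.3 and edgeR 4.0.16: filterByExpr (minimum count 10, total 15), TMM factors, a robust quasi-likelihood fit, and Benjamini-Hochberg adjustment over the 15187 genes of eWAT or the 12391 of liver. All 6 genes passed the filter in both tissues. Genes with an adjusted p under 0.05 were called. Liver had 15 libraries. The genes, pathway lists and tests were chosen with earlier results of these data known. Pathway genes were named by a rule: per list and contrast, up to 3 called genes that rose and 3 that fell, by smallest p, and Nnmt was added after its values were seen. Some genes that these rules chose are not reported here. For likeness, the 3 genes with the highest r for each of Marc1, Inmt and Prlr were named (log2 CPM, prior count 2). Alternatives were RLE factors, library totals, no filter, DESeq2 1.42.0, limma voom 3.58.1, a replicate block, all liver libraries and each library left out.

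Total counts of 8933307 to 18057936 put at least 52 counts behind each value of the 6 genes, and the spread between mice set the precision. The 48 pairs of replicates held 0 identical columns, with a mean chi-square per gene of 15.4 to 208. The labels do not tie a liver to an eWAT library of the same mouse, and the fit of both tissues treats the libraries as separate. Same-numbered libraries did not deviate together (r of −0.115 to 0.253 in eWAT and −0.131 to 0.161 in liver). The steps were tested on simulated counts with a common spread for all genes and 200 genes changed by 2 on the log2 scale. For Cort as the mean of both diets, each program recovered 100% of them. False calls in eWAT and liver were 2.44% and 2.44% with edgeR, 9.91% and 12.3% with DESeq2, and 2.44% and 3.85% with limma voom. For the interaction, edgeR recovered 40% in eWAT and 98.5% in liver.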

Additional observations from a re-analysis of the deposited data

Results flagged for a closer look

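In 3 of 42 groups of 4 libraries 1 library stood far from the rest, where chance gives about 1 in 20. Marc2 in eWAT was 411 CPM in Veh HPD replicate 4, and the nearest library of the group was at 256 CPM. In liver, Cort HPD replicate 1 was at 1151 CPM for Marc2, with the nearest library at 896 CPM, and at 219 CPM for Marc1, with the nearest at 215 CPM among 3 libraries that lay close together.

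The Cort effect differed between the tissues for 3 genes by a test of the difference itself in edgeR. Liver minus eWAT was −3.05 on the log2 scale for Inmt, 1.01 for Aldh1a7 and −1.22 for Aldh1a1, with all 3 called also without eWAT Cort HPD replicate 4 and with all 16 liver libraries.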

How the results depend on the processing

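The called Cort effects of Aldh1a1 in eWAT and of Inmt and Aldh1a7 in liver kept their direction and their call under every alternative run, whereas that of Prlr in eWAT lost its call as described. The number of genes called over the whole table was less stable, and the cause was not tested. For diet in Veh eWAT it was 9, and 16 with library totals, 30 without a filter, 126 with DESeq2, 19 with limma voom and 5 (without Veh NPD replicate 4) to 64 (without Veh HPD replicate 3) when 1 library was left out. For diet in Cort eWAT it was 74, 195 with DESeq2 and 26 (without Cort NPD replicate 1) to 124 (without Veh HPD replicate 4) when 1 library was left out (41 without replicate 4 of Cort HPD). For diet in Veh liver it was 21, and 56 without a filter, 113 with DESeq2, 7 with all 16 libraries and 5 to 40 when 1 library was left out (highest without Cort HPD replicate 1). For diet in Cort liver it was 729, 371 with all 16 libraries and 356 (without Cort NPD replicate 3) to 757 when 1 library was left out. For the liver interaction it was 14, and 9 with RLE factors, 23 with library totals, 72 without a filter, 130 with DESeq2, 7 with limma voom, 1 with all 16 libraries and 2 (without Veh NPD replicate 1) to 39 (without Veh HPD replicate 1) when 1 library was left out.

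Values that did not pass changed sign in some settings. Library totals, in place of TMM factors, moved the median of all genes to −0.14 for Cort in liver, −0.18 for diet in Cort liver and −0.22 for the liver interaction, and the share of called genes that were higher from 52.4% to 23.2% for diet in Cort liver, 61.9% to 78.6% in Veh liver, 22.2% to 37.5% in Veh eWAT, 41.9% to 53.4% in Cort eWAT and 50% to 21.7% for the interaction (66.7% with RLE factors). With library totals the values were −0.055 for Aldh1a7 with Cort in eWAT, 0.014 for Aldh1a7 with diet in Veh liver, −0.12 for Aldh1a1 with diet in Cort liver, −0.030 for Prlr and −0.064 for Aldh1a1 with Cort in liver, and −0.087 for Prlr in the liver interaction. Aldh1a7 with Cort in eWAT was −0.0070 with limma voom. With all 16 liver libraries, diet in Veh liver gave −0.26 for Inmt, −0.12 for Prlr and 0.013 for Aldh1a7, and the interaction 0.11 for Marc1 and 0.080 for Marc2. Without 1 library, the Cort effect in eWAT ran from −0.084 to 0.072 for Aldh1a7 and from −0.13 to 0.035 for Marc2, and that in liver from −0.051 to 0.17 for Prlr and from −0.0011 to 0.13 for Aldh1a1. Diet in Veh liver ran from −0.33 to 0.40 for Inmt, −0.038 to 0.18 for Prlr and −0.19 to 0.087 for Aldh1a7, diet in Cort liver from −0.020 to 0.51 for Prlr and −0.061 to 0.22 for Aldh1a1, and the interaction from −0.12 to 0.41 for Prlr and −0.17 to 0.023 for Marc2.

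The replicate numbers did not pair the libraries. With the replicate block the counts were 9, 67 and 2367 in eWAT (diet under Veh, diet under Cort, Cort) and 27, 644, 2318 and 10 in liver (diet under Veh, diet under Cort, Cort, interaction), Aldh1a7 with diet in Veh liver was 0.0051, and no call of the 6 genes changed.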
